A study of Saccharomyces cerevisiae with 24 samples.

Results

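The comparison described here is that of yhp1Δ yox1Δ cells with yox1Δ cells of the budding yeast Saccharomyces cerevisiae, which asks how the transcriptome differs when YHP1 is lost in cells that already lack YOX1. It was defined by genotype and comprised 6 of the 24 RNA-seq samples of the series, with 3 biological replicates per strain, and 6311 of the 7126 listed genes were tested because their mean over the 12 samples of the deletion set was at least 1 TPM, a unit that corrects for gene length and library size. All strains were MATa ura3 leu2 his3 haploids, and both strains compared were also met15. The yox1Δ strain carried yox1Δ::KanMX and an untagged YHP1 gene, and the yhp1Δ yox1Δ strain carried yox1Δ::NatMX and yhp1Δ::LEU2. Only the second strain of this pair therefore held a LEU2 gene, so that loss of YHP1 and gain of LEU2 cannot be told apart in any difference below. Values in 2 other pairs are given beside the results. The first pair was yhp1Δ (yhp1Δ::LEU2, lys2, without met15) and wild type (YOX1-3V5-KanMx YHP1-13MYC-LEU2, met15), and both carried LEU2. The other was yhp1-13A yox1-9A (yhp1-13A-13MYC-LEU2 with yox1-9A-3V5-KanMx) and yox1-9A (yox1-9A-3V5-KanMx, no LEU2) from the phosphomutant set, a pair in which YHP1 is mutated but not deleted and the LEU2 marker is again carried only by the double mutant. The labels name a single strain isolate per genotype, and cultures were grown asynchronously in rich medium with dextrose.

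Yhp1 and Yox1 are homeodomain repressors that act with Mcm1, a MADS-box factor, at promoters of genes expressed around the M/G1 transition and in mitosis. Their targets include genes with early cell cycle boxes, such as those of the MCM replicative helicase, and genes of the mitotic cluster. Leucine synthesis in yeast is governed largely by Leu3, which binds an element made of CCGG, any 2 bases and CCGG, and is activated by α-isopropylmalate. This intermediate is made by Leu4 and Leu9, converted by Leu1 and then oxidized by Leu2, so a leu2 mutant is blocked after the step of Leu1. Gcn4 activates genes of amino acid synthesis more widely and binds TGACTCA.

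Each of the 6 libraries held between 18.20 and 18.78 M fragments, as recovered from TPM and gene length. Replicates of yhp1Δ yox1Δ correlated with r of 0.993 to 0.995 across genes, and those of yox1Δ with r of 0.976 to 0.993. Replicate 1 of yox1Δ stood apart from the others of its strain. Between it and replicates 2 and 3, 198 and 201 genes differed by more than 2-fold. Between the latter the count was 51, and between yhp1Δ yox1Δ replicates it was 36 to 58. SPO12, for example, was at 267 TPM in replicate 1 and at 103 and 113 TPM in the others. It was also lowest in replicate 2 of wild type (149, 88.9 and 173 TPM) and of yhp1Δ (157, 97.3 and 155 TPM). The 10 genes with most fragments held 10.4% of all fragments in yox1Δ replicates 2 and 3. In replicate 2 of wild type and of yhp1Δ they held 10% and 10.1%. They held 8.57% in yox1Δ replicate 1 and 8.48 to 9.01% in yhp1Δ yox1Δ. Which yox1Δ samples were unusual was not settled. Results were recomputed without each sample in turn, yox1Δ replicate 1 among them. All 7 markers of MATa haploids were expressed (sums of 7934 to 14650 TPM in yox1Δ and 8851 to 11450 TPM in yhp1Δ yox1Δ). The 4 markers of MATalpha cells summed to 37.4 to 42.4 TPM over the 6 samples, and none of either list was called.

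Differences are given as log2 differences, yhp1Δ yox1Δ minus yox1Δ, on the log2(TPM + 1) scale, which understates the change of low genes. Calls were made with limma where the p-value, adjusted over all tested genes by the Benjamini-Hochberg method, was below 0.1 in either direction. Of 6311 genes, 14 were called higher (0.222% of those tested) and 22 lower (0.349%) in yhp1Δ yox1Δ. The 3 double mutant samples of each of these 36 genes lay on 1 side of the 3 yox1Δ samples, as they also did above for 18.3% and below for 8.3% of all tested genes. The median log2 difference of all tested genes was 0.05. At an unadjusted p below 0.05, 547 genes were higher and 277 lower. Among the called genes, 9 were higher and 8 lower by more than 2-fold. Leaving out yox1Δ replicate 1 gave 7 higher and 16 lower genes, of which 7 and 14 were among those called with all samples. With 3 samples against 3, an exact two-sided permutation test cannot give a p below 0.1, the value it took for each called gene to which it was applied.

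**Figure D1:**
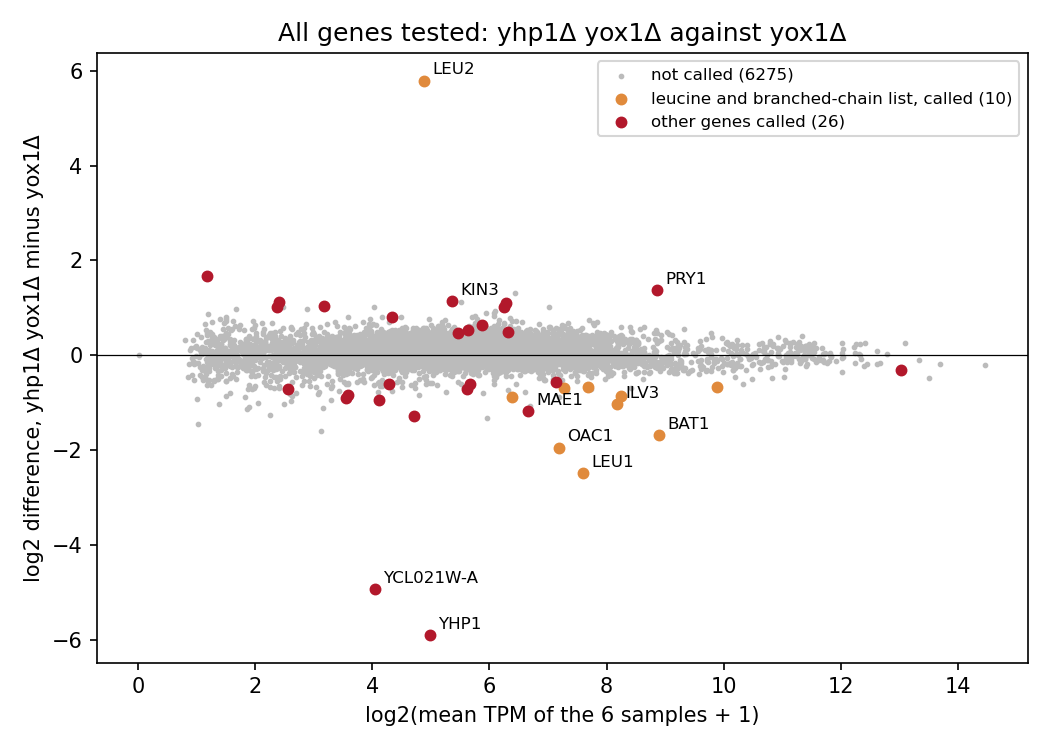
Log2 difference between yhp1Δ yox1Δ and yox1Δ (y axis) against the log2 of the mean TPM of the 6 samples plus 1 (x axis), with 1 point per tested gene. LEU2 lies far above all other genes, YHP1 and YCL021W-A far below, and LEU1, OAC1 and BAT1 lead the remaining genes that fell.

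The genes altered in the strains themselves gave the largest differences. YHP1 (YDR451C, chromosome IV, 1361120 to 1362181 in R64) was at 80.1, 43.8 and 60.4 TPM in yox1Δ and at 0.0424, 0 and 0 TPM in yhp1Δ yox1Δ, which rested on 1 fragment in the 3 double mutant libraries against 4280 in yox1Δ. The ratio of fragments was 4300 (exact 95% interval 772 to 170000, for counting error only), and the deletion was thus seen in every sample. LEU2 (YCL018W, chromosome III, 91324 to 92418) showed the opposite pattern, at 0, 0 and 0.128 TPM in yox1Δ and at 54.6, 58.3 and 57.4 TPM in yhp1Δ yox1Δ. Its ratio of fragments was 1380 (473 to 6700), with 3 fragments in the yox1Δ libraries. YOX1 itself was nearly absent from both strains, with a mean TPM of 0.831 ± 0.234 in yox1Δ and of 1.64 ± 0.222 in yhp1Δ yox1Δ (SD, n = 3), and was not called (adjusted p = 0.224, limma).

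A further gene of the LEU2 region was missing from the double mutant. YCL021W-A, whose end lies 7327 bases before LEU2 on chromosome III (83620 to 83997), was at 32.9, 29.2 and 30.8 TPM in yox1Δ and at 0, 0 and 0.118 TPM in yhp1Δ yox1Δ. It was at 27.0 ± 3.44 TPM in wild type and 28.8 ± 1.23 TPM in yhp1Δ (SD, n = 3), and only the yhp1Δ yox1Δ libraries of the deletion set held at most 1 fragment of it. Its log2 difference was -4.94 (adjusted p = 5.75e-11, limma), and the labels do not name an alteration of this locus. The tRNA identifier tL(CAA)C gave 0 fragments in all yox1Δ samples and 2, 3 and 9 in yhp1Δ yox1Δ, at least 4.64-fold higher against a floor of 3 fragments over the group. It also stood at a mean of 0 TPM in yox1-9A, the other strain without LEU2, and at 3.14 TPM in wild type. Its call (adjusted p = 0.0948, limma) was lost in 9 of 12 fits that left out a sample, with adjusted p-values up to 0.261. PPN1, which encodes a polyphosphatase and is the neighbour of YHP1 on chromosome IV (1362878 to 1364902), rose from 68.8, 62.9 and 63.5 TPM to 91.5, 94.1 and 90.8 TPM (log2 difference 0.50 ± 0.10 SE, adjusted p = 0.0864, limma). This call too was lost in 9 of the 12 fits, with adjusted p-values up to 0.401.

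Genes of leucine and branched-chain amino acid synthesis fell as the largest group. Of 18 listed members, 9 were called lower, 1 (LEU2) was called higher and 8 were not called. Without LEU2, the median log2 difference of the list was -0.67, against 0.05 for all tested genes. LEU1, the isopropylmalate isomerase, showed the strongest fall, from 293, 321 and 372 TPM in yox1Δ to 57.7, 54.2 and 59.9 TPM in yhp1Δ yox1Δ. This is a log2 difference of -2.49 ± 0.11 (SE, adjusted p = 7.82e-08, limma). OAC1, a mitochondrial carrier of oxaloacetate and isopropylmalate, was at 265, 187 and 240 TPM in yox1Δ and at 63.5, 57.1 and 54.8 TPM in the double mutant (-1.95 ± 0.13). BAT1, the mitochondrial branched-chain aminotransferase, was at 784, 656 and 735 TPM and then at 220, 212 and 239 TPM (-1.69 ± 0.09). In all 3 genes the lowest yox1Δ sample was more than 2-fold above the highest double mutant sample.

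The common branch of isoleucine, valine and leucine synthesis moved less. ILV3, the dihydroxyacid dehydratase, was at 365, 379 and 423 TPM in yox1Δ and at 193, 177 and 200 TPM in yhp1Δ yox1Δ (log2 difference -1.03 ± 0.09 SE, adjusted p = 6.1e-05, limma). ILV5, the reductoisomerase, and ILV2, the acetolactate synthase, had log2 differences of -0.67 ± 0.10 and -0.67 ± 0.12. LEU4, an isopropylmalate synthase, was at 88.6, 117 and 117 TPM in yox1Δ and at 58.8, 56.5 and 57.7 TPM in the double mutant. BAP2, a permease for branched-chain amino acids, and GDH1, the NADP-dependent glutamate dehydrogenase, had log2 differences of -0.86 ± 0.14 and -0.68 ± 0.12. The other 4 calls of the group were lost in some fits that left out a yox1Δ or a double mutant sample, with adjusted p-values up to 0.132 for BAP2, 0.162 for LEU4, 0.207 for GDH1 and 0.247 for ILV2. The 9 calls became 5 without yox1Δ replicate 3 or without replicate 1 or 2 of the double mutant. ILV3, ILV5, LEU1, OAC1 and BAT1 were called in each of these fits. The regulator gene LEU3 had a mean TPM of 35.4 ± 2.35 in yox1Δ and 35.8 ± 0.578 in the double mutant (SD, n = 3, log2 difference 0.02 ± 0.10 SE) and was not called. The second isopropylmalate synthase gene, LEU9, and the regulatory subunit gene ILV6 had log2 differences of -0.48 and -0.38, with adjusted p-values of 0.17 and 0.185 (limma).

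**Figure D2:**
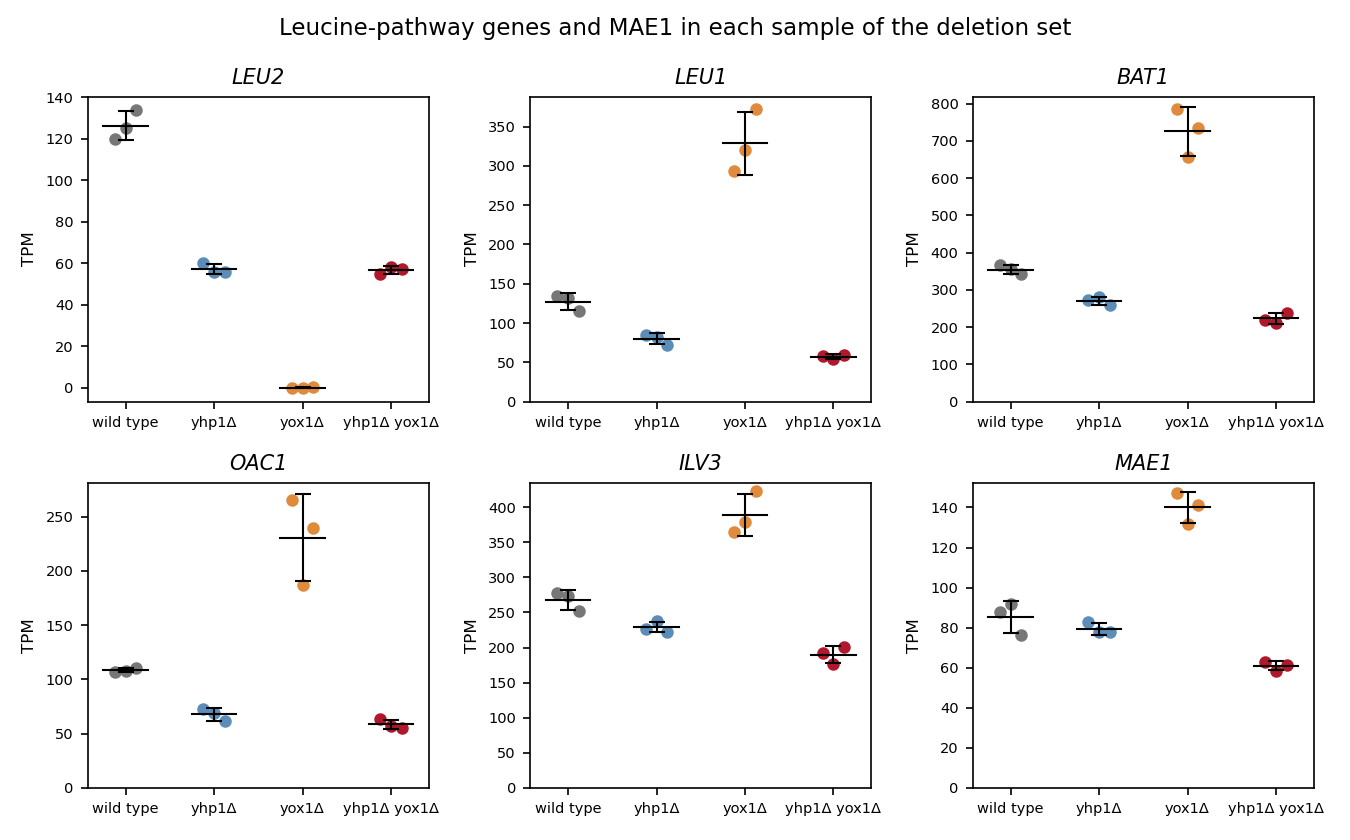
TPM (y axis) of LEU2, LEU1, BAT1, OAC1, ILV3 and MAE1 in each sample of the 4 strains of the deletion set (x axis), with points for replicates and bars for the mean and its SD (n = 3). In each panel except that of LEU2 the yox1Δ samples are the highest of the set, and in that of LEU2 they lie at 0 or 0.128 TPM.

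Set beside the other strains of the deletion set, yox1Δ was the one that stood out. LEU1 was at 127 ± 10.5 TPM in wild type and 79.8 ± 6.98 TPM in yhp1Δ (SD, n = 3), between the levels of the 2 strains compared here. The mean of LEU2 was 126 TPM in wild type and 57.2 TPM in yhp1Δ. In yhp1Δ against wild type, where 2 genes (0.0317%) were called higher and 6 (0.0951%) lower, LEU1 and LEU2 were called lower with log2 differences of -0.67 and -1.13, and the other members of the list were not called. Replicate numbers paired the samples of these 2 strains, and with the number as a block in a fit of this pair alone 38 genes (0.602%) were called. OAC1 (-0.67, adjusted p = 0.000583, limma), BAT1 (-0.38, adjusted p = 0.00468) and GDH1 were then called lower as well, which made 5 of the 18 members. In yhp1-13A yox1-9A against yox1-9A, where 22 of 6316 genes (0.348%) were called, 8 higher (0.127%) and 14 lower (0.222%), LEU2 was higher by 5.96 and 5 members of the list were called lower. These were LEU1 (-2.12), OAC1 (-1.56), BAT1 (-1.27), LEU4 (-0.71) and GDH1 (-0.56). ILV3, BAP2, ILV2 and ILV5 were not called there, with adjusted p-values of 0.145, 0.338, 0.654 and 0.993. With a replicate block in the fit of all 4 strains of that set, 65 of 6316 genes were called. ILV3 (adjusted p = 0.00546, limma), BAP2 (0.00718) and ILV2 (0.0459) were then called lower as well, and ILV5 (0.217) was not. In a blocked fit of the pair alone 12 genes were called. LEU4 (0.236) and GDH1 (0.316) lost their calls there, and ILV3, BAP2, ILV2 and ILV5 were not called. Only within each pair are these values tested, as the 2 sets were processed as separate tables.

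Some falls lay outside the leucine list. MAE1, the mitochondrial malic enzyme, was at 147, 132 and 141 TPM in yox1Δ and at 62.9, 58.4 and 61.4 TPM in yhp1Δ yox1Δ (log2 difference -1.19 ± 0.10 SE, adjusted p = 2.92e-05, limma). RPI1, which encodes a transcriptional regulator, was at 67.5, 58.6 and 54.3 TPM and then at 34.8, 35.7 and 37.8 TPM (-0.72 ± 0.10, adjusted p = 0.00958). Both were called in every fit that left out a sample. In the phosphomutant pair MAE1 differed by -0.62 (adjusted p = 0.587) and RPI1 by 0.09 (adjusted p = 0.993), and neither was called. Arginine synthesis had 2 called members, ARG4 (argininosuccinate lyase, -0.61) and ARG3 (ornithine carbamoyltransferase, -0.72), among 17 listed genes for histidine and arginine synthesis. The list had a median of -0.18, and 14 of its 17 members lay below 0. ARG4 and ARG3 lost their calls in 5 and 6 of the 12 fits without a sample, yox1Δ replicate 1 among them, with adjusted p-values up to 0.262 and 0.286. DRE2, which acts in cytosolic iron-sulfur assembly, fell by 0.57 on the log2 scale and GAT1, a GATA activator of nitrogen-regulated genes, fell by 0.61, with adjusted p-values up to 0.165 and 0.293 when a sample was left out.

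Some promoters of the genes that fell held a Leu3 or Gcn4 element, neither of which the comparison used. The element bound by Leu3 (CCGG, any 2 bases, CCGG), which reads alike on both strands, was searched in the 500 bases before the start codon of 5738 tested genes and was found in 16 of them (0.279%). Of these 16 genes, 8 were called lower, LEU2 was called higher and 7 were not called. The 8 genes, LEU1, BAT1, BAP2, GDH1, ILV5, ILV2, GAT1 and DRE2, made up 42.1% of the 19 called lower genes with a promoter. Among the 7 not called, the log2 difference ranged from -0.38 (FSF1) to 0.52 (MGM101), and 13 of all 16 lay below 0. OAC1, MAE1, ILV3, LEU4 and RPI1 fell without a match in this window. TGACTCA, searched on both strands, was found in 237 promoters (4.13%), and in 7 of the 19, namely ARG3, ARG4, BAT1, ILV3, ILV5, LEU1 and LEU4. Matches to the first element in 6 genes are shown here to set the falls beside the element, read from RefSeq R64 on the strand of the gene, with the element in capitals; a match describes letters only, and binding was not measured here. They lie at chrVII:478835-478894 for LEU1 (minus strand), chrVIII:517360-517419 for BAT1 (plus strand) and chrXII:839596-839655 for ILV5 (minus strand). Those of BAP2, GDH1 and ILV2 lie at chrII:376042-376101 (minus strand), chrXV:1043412-1043471 (minus strand) and chrXIII:483591-483650 (plus strand).
LEU1: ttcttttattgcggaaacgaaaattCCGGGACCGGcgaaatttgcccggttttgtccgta
BAT1: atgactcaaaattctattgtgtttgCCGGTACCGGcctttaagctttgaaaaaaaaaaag
ILV5: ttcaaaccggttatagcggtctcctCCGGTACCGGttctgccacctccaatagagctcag
BAP2: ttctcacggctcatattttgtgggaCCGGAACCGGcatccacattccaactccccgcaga
GDH1: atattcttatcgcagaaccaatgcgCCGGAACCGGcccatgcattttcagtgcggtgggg
ILV2: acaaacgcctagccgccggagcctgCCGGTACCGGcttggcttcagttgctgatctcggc

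The genes that rose were set against lists tied to Yhp1 and Yox1. Of the 14 genes called higher, 8 belong to a list of 325 genes taken from an experiment on other samples, in which Yhp1, Yox1 or their phosphomutants were acutely overexpressed. The list used here is shorter than the set of regulated genes named in the study's methods. Of its 320 tested genes 8 were called higher (2.5%) and 2 lower (0.625%), against 0.222% and 0.349% of all tested genes. The 8 include PPN1, the neighbour of YHP1, and the 2 are YHP1, the deleted gene itself, and RPI1. At an unadjusted p below 0.05 in limma 38 were higher and 34 lower, against 547 and 277 of all 6311 tested genes. The median log2 difference of the list was 0.03, against 0.05 for all tested genes. A second list, of overlap genes, had been chosen by the study as higher in the double deletion and lower in the double phosphomutant, each against wild type. It rests in part on the double mutant samples used here, so its direction is not independent evidence. Only 15 of its members were used here, 1 fewer than the study names, and the missing gene was not analysed here. Of these 15, 5 were called higher, 10 were not called, 0 were called lower and 12 lay above 0, with a median of 0.57. At an unadjusted p below 0.05 in limma 10 were higher and 0 lower. Without yox1Δ replicate 1, 3 of the 15 were called higher, and 2 were without yhp1Δ replicate 1, yox1Δ replicate 2 or 3, or any 1 sample of the double mutant.

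PRY1, a secreted sterol-binding protein of the CAP family, rose most among them. It was at 285, 272 and 224 TPM in yox1Δ and at 636, 665 and 720 TPM in yhp1Δ yox1Δ, with no overlap (log2 difference 1.37 ± 0.12 SE, adjusted p = 5.8e-05, limma). It was at 147 ± 12.1 TPM in wild type and 218 ± 25.4 TPM in yhp1Δ, so that the mean was lowest in wild type and highest in the double mutant. The levels of yhp1Δ and yox1Δ were not tested against each other. KIN3, a NIMA-related kinase of mitosis, was at 30.2, 20.8 and 24.1 TPM and then at 57.0, 53.6 and 56.2 TPM (1.14 ± 0.17, adjusted p = 0.00993). In contrast to PRY1, its levels in wild type (27.9 ± 5.37 TPM) and yhp1Δ (31.1 ± 4.89 TPM) were close to those in yox1Δ. PRY1 and KIN3 were called in all fits that left out a sample, with adjusted p-values up to 0.000749 and 0.0773.

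NDL1, DBF2 and NCA3 were called with less margin. NDL1, a regulator of dynein, was at 68.4, 42.7 and 38.7 TPM in yox1Δ and at 107, 107 and 99.8 TPM in yhp1Δ yox1Δ (log2 difference 1.09 ± 0.21 SE, adjusted p = 0.0569, limma). Its level varied between replicates elsewhere too, and was lowest in replicate 2 of wild type (58.4, 42.1 and 58.4 TPM) and of yhp1Δ (56.5, 42.3 and 64.5 TPM). DBF2, a kinase of the mitotic exit network, was at 41.3, 35.9 and 41.9 TPM and then at 59.7, 56.9 and 56.1 TPM (0.53 ± 0.10, adjusted p = 0.0602). NCA3, a member of the SUN family, was at 54.2, 54.2 and 40.2 TPM and then at 115, 109 and 79.7 TPM (1.01 ± 0.22, adjusted p = 0.0954). The 3 double mutant samples of each gene lay above all yox1Δ samples. The calls were lost in 6, 7 and 10 of the 12 fits without a sample, those without any 1 double mutant sample or without yox1Δ replicate 2 or 3 among them, with adjusted p-values up to 0.249, 0.314 and 0.479. The list members YGP1 (260.8, 281 and 256 TPM against 456, 395 and 367 TPM) and PIG1 (11.9, 11.9 and 10.5 TPM against 16.6, 17.5 and 18.1 TPM), were also separated and were not called, with adjusted p-values of 0.192 and 0.17.

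**Figure D3:**
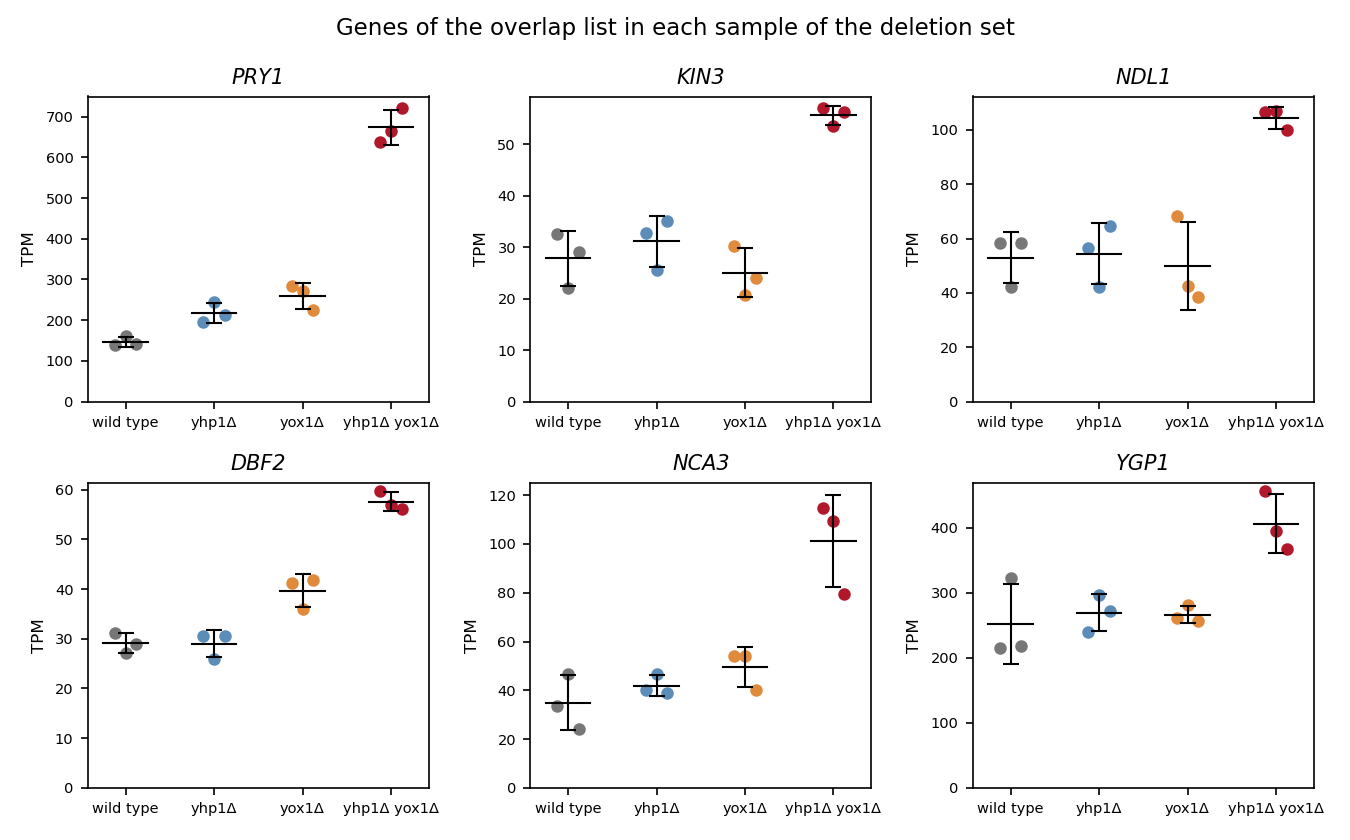
TPM (y axis) of PRY1, KIN3, NDL1, DBF2, NCA3 and YGP1 in each sample of the 4 strains of the deletion set (x axis), with points for replicates and bars for the mean and its SD (n = 3). The 3 yhp1Δ yox1Δ samples of every gene lie above the 3 yox1Δ samples, at 636 to 720 TPM for PRY1 and 53.6 to 57.0 TPM for KIN3.

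The other pairs gave different values for these genes. In yhp1Δ against wild type, PRY1 differed by 0.56 (adjusted p = 0.279), and KIN3, NDL1, DBF2 and NCA3 by 0.16, 0.03, -0.01 and 0.30. None of them was called. With the replicate block in a fit of this pair alone, however, PRY1 was called higher (0.56 ± 0.06 SE, adjusted p = 0.000374, limma), and the other 4 were not called, with adjusted p-values from 0.509 to 0.99. Whether the difference between strains without and with YHP1 was larger without YOX1 than with it was tested as an interaction. Marker and tag differences of the strains also enter into it. It was called for 12 genes (0.19%), 4 higher (0.0634%) and 8 lower (0.127%), and for none of these 5. The interaction was 0.81 ± 0.17 (SE, adjusted p = 0.173, limma) for PRY1, 0.98 ± 0.24 (adjusted p = 0.368) for KIN3 and 0.54 ± 0.15 (adjusted p = 0.598) for DBF2. With a replicate block in the fit of all 4 strains 13 genes (0.206%) were called, KIN3 (adjusted p = 0.0491, limma) in addition to the 12. PRY1 then had an adjusted p of 0.105. Same-numbered yhp1Δ yox1Δ and yox1Δ samples correlated only weakly in their residuals (0.217, 0.0788 and 0.305), so whether the numbers pair them is uncertain. In yhp1-13A yox1-9A against yox1-9A, the values were 0.02 for PRY1, -0.42 for KIN3, -0.27 for NDL1, -0.41 for DBF2 and 0.01 for NCA3 (adjusted p of 0.993 or more in limma). The paper reports that blocking phosphorylation raises the levels of these repressors and strengthens repression of their targets. This pair is therefore not a second loss of YHP1, and the same direction need not hold in both pairs. None of these 5 genes was called there, and 5 of the leucine genes were called lower in the same fit. The YHP1 allele and the LEU2 marker change together in this pair too, so their parts in either group of genes cannot be told apart.

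**Figure D4:**
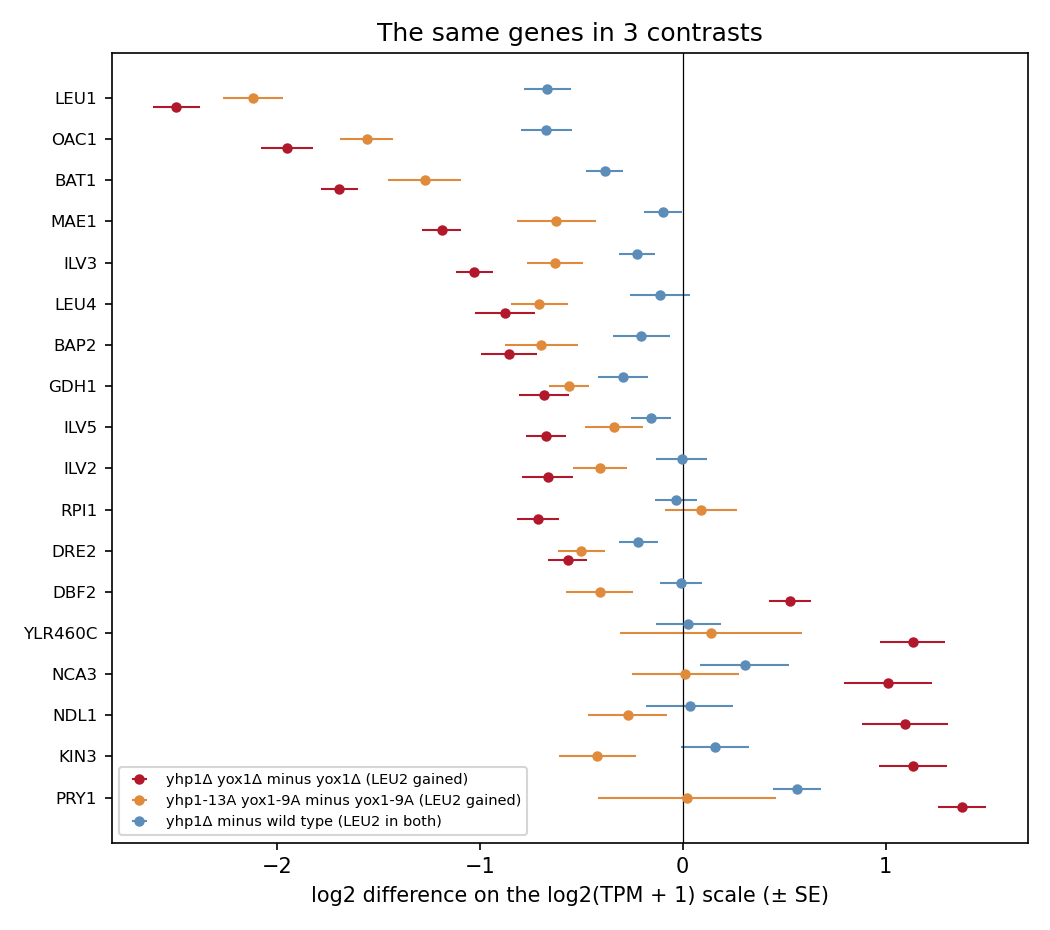
Log2 difference (x axis, points with bars for the SE) of 18 called genes (y axis) in 3 pairs of strains, each with 3 samples against 3. LEU1, OAC1 and BAT1 lie far below 0 in both pairs in which LEU2 was gained and YHP1 was deleted or mutated. KIN3, NDL1 and PRY1 lie more than 1 above 0 only in yhp1Δ yox1Δ against yox1Δ.

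The promoter of KIN3 holds the Mcm1 core (CC, 3 bases, T, 2 bases, GG) and the homeodomain core TAATTA at the same place, since its 10 bases CCTAATTAGG contain both. This site is 125 bases before the start codon, at chrI:171804-171863 in RefSeq R64 (minus strand). In DBF2 a TAATTA lies behind the Mcm1 core, at chrVII:667918-667977 (plus strand), and in PRY1 one lies before the core, at chrX:291214-291273 (minus strand). The 3 stretches were chosen because each holds both cores, and they place these beside the genes that rose, with the Mcm1 core in capitals. All are printed on the strand of the gene, and in PRY1 the capitals match the core pattern on the opposite strand. On either strand, the Mcm1 core was found in 30.2% and TAATTA in 24.7% of the 5738 promoters, and in 8 and 6 of the 10 called higher and 10 and 3 of the 19 called lower genes with a promoter. PRY1 and DBF2 each hold another Mcm1 core, 430 and 431 bases before the start codon, without TAATTA in the 60 bases around it. NCA3 holds Mcm1 cores at 440 and 309 bases and no TAATTA. NDL1 holds neither within its 500 bases.
PRY1: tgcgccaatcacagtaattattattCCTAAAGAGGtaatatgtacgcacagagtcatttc
KIN3: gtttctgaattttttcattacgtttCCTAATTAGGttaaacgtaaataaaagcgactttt
DBF2: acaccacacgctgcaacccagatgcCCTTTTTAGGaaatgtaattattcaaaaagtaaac

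The early cell cycle box (TT, 1 base, the Mcm1 core and AAA), which overlaps the core by construction, was found in 58 promoters (1.01%). None of these 58 genes was called, in either direction, and 35 lay above 0 with a median log2 difference of 0.08. The MCM2-7 helicase genes were likewise not called. MCM2 had a mean TPM of 26.4 ± 1.62 in yox1Δ and 30.6 ± 0.822 in the double mutant (SD, n = 3), the highest log2 difference of the 6 at 0.21 ± 0.11 (SE). MCM7 differed by -0.01 ± 0.12, and the median of the list was 0.14. Genes of origin licensing and firing had a median of 0.21, with 15 of 18 above 0 and 0 called. Of 6 targets that were also studied with conditional alleles, DBF2 alone was called, whereas PRI2 (0.39), CDC20 (0.29), MCM2 (0.21), POL1 (0.15) and MCM5 (0.14) had adjusted p-values from 0.375 to 0.577.

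Other cell cycle lists held few calls. In bulk RNA from asynchronous cultures, fewer cells in a stage and less RNA per cell cannot be told apart. In the G2/M cluster KIN3 and DBF2 were called higher and 21 of 23 genes were not called, with a median of 0.05. CLB2, the main mitotic cyclin, differed by -0.31 ± 0.14 (SE, adjusted p = 0.375). In the mitotic exit network DBF2 was the only call among 11 genes, and TEM1, its upstream GTPase, was at 54.5, 34.0 and 37.4 TPM in yox1Δ and at 55.3, 59.4 and 56.8 TPM in the double mutant. Here yox1Δ replicate 1 lay near the double mutant samples and the other replicates did not. The same held for SPO12, a regulator of early anaphase release (267, 103 and 113 TPM against 224, 224 and 210.0 TPM), and for SIC1, an inhibitor of Cdk1 (143, 63.2 and 62.4 TPM against 119, 123 and 106 TPM). Condensin (5 genes), the anaphase-promoting complex (13 genes), histones (10 genes) and, apart from YHP1, G1/S genes (24 genes) held no called gene in limma, and their medians lay between 0.02 and 0.16. At an unadjusted p below 0.05 these lists held 1, 1, 1 and 2 genes that were higher and 0, 0, 1 and 2 that were lower.

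**Figure D5:**
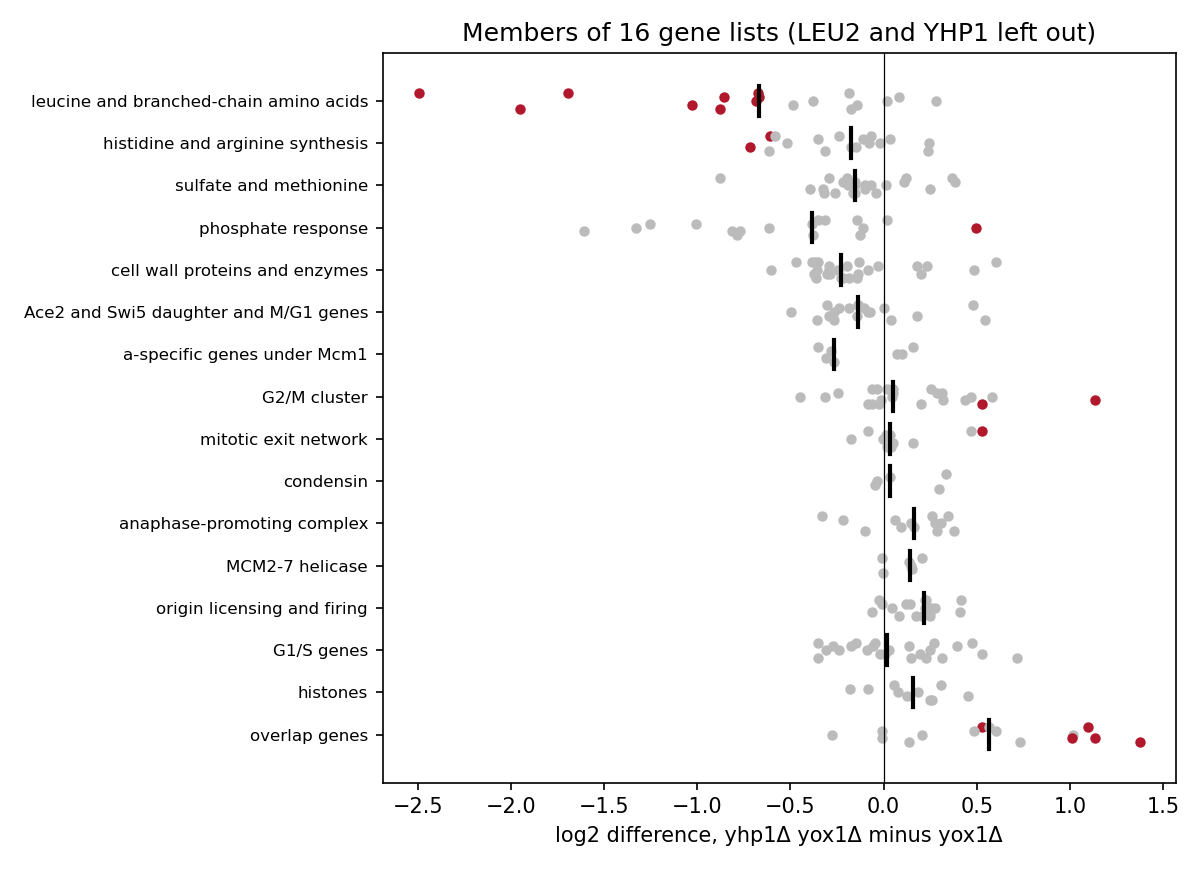
Log2 difference (x axis) of the members of 16 gene lists (y axis), without LEU2 and YHP1, in yhp1Δ yox1Δ against yox1Δ, with called genes in red, other genes in grey and the median as a black bar. The leucine list has the lowest median (-0.67) and the list of overlap genes the highest (0.57).

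Several lists lay mostly below 0 without calls. Of 27 cell wall proteins and enzymes 22 were below 0, with a median of -0.23. At an unadjusted p below 0.05 in limma, 10 were lower and 3 (YGP1, SPI1 and TIP1) higher, but 0 were called. SRL1, a mannoprotein, was at 1714, 1562 and 1379 TPM in yox1Δ and at 1004, 1070.2 and 979 TPM in the double mutant (adjusted p = 0.197). Whereas PRY1 and NCA3 rose, their relatives PRY2 and SIM1 had log2 differences of -0.38 ± 0.14 (adjusted p = 0.368) and -0.35 ± 0.10 (adjusted p = 0.302). UTH1, another SUN relative, had a log2 difference of 0.27 ± 0.09 (adjusted p = 0.365) with all 3 double mutant samples above the yox1Δ samples. Genes of the phosphate response lay below 0 in 15 of 17 cases with a median of -0.38, and PPN1 was the only call. PHO84, the phosphate transporter, was at 40.2, 95.3 and 137 TPM in yox1Δ and at 29.5, 34.4 and 31.1 TPM in yhp1Δ yox1Δ. Of these 2 strains the spread lay in yox1Δ, with replicate 1 the lowest. Wild type had a like spread, at 43.6, 133 and 182 TPM, and yhp1Δ was at 32.7, 76.5 and 56.6 TPM, so it was not particular to yox1Δ. In the sulfate and methionine list, MET6, the methionine synthase, was at 129, 228 and 214 TPM and then at 96.0, 104 and 101 TPM (adjusted p = 0.224). Lists of 12 genes of the retrograde response, 22 of iron uptake, 9 of lysine synthesis, 12 of glycogen and 30 of stress response held 0 called genes in limma and had medians from -0.10 to 0.10. At an unadjusted p below 0.05 they held 0, 1, 0, 1 and 2 higher genes and 0, 0, 1, 0 and 1 lower genes.

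The remaining called genes had low levels or little annotation. YLR460C was at 1.89, 2.70 and 2.43 TPM in yox1Δ and at 6.10, 6.07 and 6.70 TPM in yhp1Δ yox1Δ (log2 difference 1.13 ± 0.16 SE, adjusted p = 0.0078, limma). The small nucleolar RNA identifier snR62 rose from 13.8, 12.7 and 14.5 TPM to 27.5, 21.8 and 24.5 TPM and remained called in every fit without a sample, whereas snR64 fell from 13.2, 13.0 and 16.6 TPM to 6.24, 9.27 and 6.18 TPM and lost its call in 6 of them. Over all 77 small nucleolar RNA identifiers the median was -0.11. The methods name poly-A purification and the labels name poly-A depletion, and the part of that step in these values was not tested. Among transcripts at higher levels, YDL158C rose from 34.4, 35.5 and 38.8 TPM to 50.2, 51.3 and 49.6 TPM, and YDR524C-B fell from 9500, 9224 and 9052 TPM to 7653, 7102 and 7720 TPM. Their calls were lost in 7 and 9 of the 12 fits without a sample, with adjusted p-values up to 0.368 and 0.379. YNL103W-A fell by 1.29 on the log2 scale and by 1.27 in the phosphomutant pair, where it was not called (adjusted p = 0.19). With a replicate block in the fit of all 4 strains of that set it was called (adjusted p = 0.0324, limma). In a blocked fit of the pair alone it was not called (0.149). Its call in yhp1Δ yox1Δ against yox1Δ (adjusted p = 0.0507, limma) was lost in 5 of the 12 fits without a sample, with adjusted p-values up to 0.247. YMR030W-A, YHL026C and YGL165C were called higher (1.05, 0.64 and 1.02), and COS1 and YLR466C-B lower (-0.84 and -0.95). Each of these last 5 lost its call in at least 4 of the 12 fits without a sample, with adjusted p-values up to 0.46.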

How the data were processed

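RNA-seq of 24 samples in 2 tables was analysed. The authors aligned paired-end reads to R64-1-1 with STAR 2.5.3a, counted exon fragments with featureCounts 1.5.2 and deposited TPM per gene and sample. The number of sample columns left unused was 0. In R 4.3.3, limma 3.58.1 was fitted to log2(TPM + 1) of the 4 groups of a set, without covariates and with an eBayes trend, for genes whose average over a set reached 1 TPM. The deposited tables hold no counts, so no count model was the main test. Fragments were recovered by scaling TPM by gene length so that each library's values became whole numbers (within 0.02, for 100% of values below 10000 fragments). Intervals on fragment ratios are exact binomial (95%) and cover counting error only.

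Whether replicate numbers pair samples was checked from residuals. In wild type and yhp1Δ, same-numbered samples correlated by 0.477, 0.751 and 0.528, so blocked values are given where they change a call of that pair.

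The members, gene lists and comparisons were chosen with earlier results of these data known. Named genes were the strain loci, up to 12 separated called genes in each direction, called list members (up to 8 per list), the genes of the study's 2 target lists, up to 10 genes of the interaction, and 2 to 4 leading members of described lists. Among other named genes, ILV5, ILV2, DRE2, GAT1, COS1, LEU3, LEU9, ILV6, FSF1, MGM101, YDR524C-B, YDL158C, TIP1 and UTH1 were chosen after their values were seen. Gene names and positions came from RefSeq R64, which matched 6048 of 7126 identifiers. The identifiers tL(CAA)C, snR62, snR64, YNL103W-A, YGL165C, YDL158C and YLR466C-B had no match. Whether counting used strand is not given in the sources used here, so overlapping genes on opposite strands may share fragments. Alternatives covered the pseudocount, filters, scaling, samples fitted, a replicate block, variance moderation, the threshold, limma-voom on recovered fragments and each of 12 samples left out.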

Additional observations from a re-analysis of the deposited data

Results flagged for a closer look

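The difference between the strains without and with YHP1 was not the same in cells without and with YOX1 for 12 genes. This was called by the interaction in limma (adjusted p below 0.1), into which marker and tag differences of the strains also enter. The interaction is the log2 difference of yhp1Δ yox1Δ against yox1Δ minus that of yhp1Δ against wild type. It was 6.92 for LEU2, which was gained in the first pair (5.79) and 1.13 lower on the log2 scale in yhp1Δ than in wild type. It was -1.83 for LEU1, -1.31 for BAT1, -1.28 for OAC1, -1.09 for MAE1 and -0.80 for ILV3, and each of these 5 genes fell more in cells without YOX1. YCL021W-A had an interaction of -5.04 and snR64 of -1.57.

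For 4 further genes the difference came from the pair with YOX1. It was -7.00 for MET17 and 4.38 for LYS2, genes that differ between yhp1Δ and wild type by genotype. It was 0.76 for LYS9, which was 0.68 lower on the log2 scale in yhp1Δ than in wild type and differed by 0.08 in the cells without YOX1. For YOX1 it was 1.70, with a gene that is tagged in wild type, untagged in yhp1Δ and deleted from both other strains. No explanation was tested, and loss of YHP1 cannot be told apart from the marker and tag differences of these strains.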

How the results depend on the processing

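Of the 36 called genes, 13 stayed called under all 22 alternatives. These were LEU2, PRY1, KIN3 and snR62, which were higher, and YHP1, YCL021W-A, LEU1, BAT1, OAC1, MAE1, ILV3, ILV5 and RPI1, which were lower. No named gene reversed its direction past the threshold. The 14 higher and 22 lower genes became 60 and 38 when only the 2 groups were fitted (13 and 18 of them shared with the first call) and 37 and 45 with a replicate block (14 and 22 shared). With the block, 8 of the 15 overlap genes used here were called higher in place of 5. Residuals of same-numbered yhp1Δ yox1Δ and yox1Δ samples correlated by 0.217, 0.0788 and 0.305, so the numbers were not taken as pairs, and yox1Δ replicate 2 correlated best with another number (0.143), whereas the other samples did so with their own. In alternatives added after the data were seen, yhp1Δ against wild type gave 8 genes, 10 with a replicate block, 5 when only the pair was fitted and 38 with the block in that fit. The phosphomutant pair, whose same-numbered samples correlated by 0.455, -0.219 and 0.536, gave 22 genes, 65 with the block and 12 with the block in a fit of the pair alone. At an adjusted p below 0.05, 7 genes were higher and 16 lower, with 2 of the overlap genes and 4 of the induction list (8 before) called higher. Leaving out 1 sample gave 5 to 21 higher genes, 9 to 24 lower genes, 2 to 6 overlap genes, 2 to 9 genes of the induction list and 5 to 9 lower genes of the leucine list. The count of higher genes fell by more than 1.5 times without yhp1Δ replicate 1 (8), yox1Δ replicate 1 (7) or 3 (6), or yhp1Δ yox1Δ replicate 1 (6), 2 (5) or 3 (7). That of lower genes did so without yox1Δ replicate 3 (10) or yhp1Δ yox1Δ replicate 1 (9), 2 (10) or 3 (10). Fewer samples were fitted in each of these. The interaction gave 9 to 14 genes under all alternatives. The median of the leucine list with LEU2 stayed between -0.63 and -0.52 and that of the overlap genes between 0.52 and 0.64. The median of all genes was -0.00 after median-of-ratios scaling.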
